A study of Mus musculus with 8 samples.

Results

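The genes described here are 37 members of the pathways that make cholesterol and fatty acids and of the machinery that controls, moves and stores these lipids. They were chosen by their function and matched by Entrez gene ID to the 24235 genes with an Entrez ID on the arrays. All 37 were matched, all 37 were among the 15637 genes kept after a filter on low signal, and all 37 were well above background on 8 of 8 arrays. By role, 17 members make sterols (6 at the mevalonate steps, 3 from squalene to lanosterol and 8 from lanosterol to cholesterol), 5 control the SREBP factors, 6 make or modify fatty acids, 4 belong to the LXR receptors and their efflux pumps, and 5 carry or store cholesterol inside the cell. Levels are log2 scaled signals of 1-colour arrays and are compared only within a gene, since probes differ in brightness.

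The cells came from preantral follicles of 5 pooled Swiss females per replicate, 8 weeks of age, and were mostly granulosa cells, the somatic support of the oocyte. They were dispersed, grown for 9 days in all, moved on day 7 to a hormone-free medium with charcoal-treated serum and no androstenedione, and transfected with 12 pmol of siRNA together with a red fluorescent reporter plasmid. The siRNA was a non-targeting pool (control siRNA) or a pool against Foxl2, a transcription factor of granulosa cells (FOXL2 siRNA). Vehicle or 100 nM estradiol (E2) was present for the 10 h before lysis. The labels count these within the 24 h of growth that preceded lysis, while the study's text places 24 h of siRNA ahead of E2. Each siRNA was combined with each treatment, which gave 4 groups of 2 arrays. The members were examined to see how their levels differed between the siRNAs, between E2 and vehicle, and whether the E2 effect depended on the siRNA.

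Cholesterol is built from acetyl-CoA through mevalonate, isoprenoid phosphates, squalene and lanosterol. When sterols are scarce in the endoplasmic reticulum, Scap escorts the SREBP factors to the Golgi, where they are cut and released to switch on the genes of synthesis, while the Insig proteins hold Scap back when sterols are plentiful. When oxidised sterols build up, the LXR receptors switch on the pumps that export cholesterol. Granulosa cells use cholesterol as the raw material of steroid hormones.

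The direction of every siRNA comparison rests on the labels. Foxl2 itself lay at 13.46 and 13.01 with control siRNA plus vehicle, 12.94 and 12.76 with control siRNA plus E2, 13.41 and 13.39 with FOXL2 siRNA plus vehicle, and 13.12 and 12.96 with FOXL2 siRNA plus E2. Between the siRNAs it differed by 0.18 over both treatments (SE 0.10, limma adjusted p = 0.334), so its averaged signal did not separate the groups, which are written below as the arrays labelled FOXL2 siRNA or control siRNA. The dimmer of its 2 probes was lower in all 4 arrays labelled FOXL2 siRNA, by -0.97 (SE 0.19, limma adjusted p over probes 0.0164). The average followed the brighter probe, at a mean of 14.12 against 6.19 for the dimmer. The study reports qPCR in which its siRNA pools lowered each targeted mRNA, which is not a measurement on these arrays. Fst and Esr2, which the study names as genes that FOXL2 activates, had lower levels under FOXL2 siRNA as labelled, with values given beside the granulosa markers. Across genes, the 2 arrays of each group correlated at 0.989 to 0.992. Of the markers checked, 7 of 9 granulosa genes were well above background on all 8 arrays, while Fshr, Lhcgr, 4 of 6 oocyte genes (Zp1, Zp2, Zp3, Bmp15), the macrophage genes Ptprc and Lyz2, the adipocyte genes Adipoq, Plin1 and Cidec and the endothelial genes Cdh5 and Tek were so on none. From the same lists, the theca genes Cyp17a1 and Ptch1 and the macrophage genes Cd68, Csf1r and Cd14 were well above background on all 8 arrays. So were the endothelial genes Pecam1 and Kdr, the oocyte gene Gdf9 and all 5 luteal genes. The absence of other cell types was therefore not shown. The arrays hold bulk RNA, in which fewer cells of a type and less RNA per cell cannot be told apart.

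The sequences shown here are promoter windows of the 5 called members with the largest change among those in the promoter table, since the genes of sterol synthesis are known to share promoter elements read by SREBP and its partner NF-Y. They run from 250 bases before to 50 bases after the start of transcription, come from RefSeq on GRCm38.p6, and are written 5′ to 3′ on the gene's own strand. Capitals mark the NF-Y box CCAAT, also where it is read on the other strand as ATTGG, and the sterol regulatory element core TCACNCCAC. The windows are those of Hmgcs1 (chr13:119690101-119690400, plus strand), Idi1 (chr13:8885356-8885655, plus strand), Cyp51 (chr5:4104648-4104947, minus strand), Mvd (chr8:122443373-122443672, minus strand) and Hsd17b7 (chr1:169969156-169969455, minus strand).
Hmgcs1: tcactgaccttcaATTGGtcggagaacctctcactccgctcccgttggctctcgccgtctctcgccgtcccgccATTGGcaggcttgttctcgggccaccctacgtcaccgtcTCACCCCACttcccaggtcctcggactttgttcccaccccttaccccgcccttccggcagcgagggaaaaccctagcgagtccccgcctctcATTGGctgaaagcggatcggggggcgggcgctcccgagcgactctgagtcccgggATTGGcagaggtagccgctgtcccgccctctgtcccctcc
Idi1: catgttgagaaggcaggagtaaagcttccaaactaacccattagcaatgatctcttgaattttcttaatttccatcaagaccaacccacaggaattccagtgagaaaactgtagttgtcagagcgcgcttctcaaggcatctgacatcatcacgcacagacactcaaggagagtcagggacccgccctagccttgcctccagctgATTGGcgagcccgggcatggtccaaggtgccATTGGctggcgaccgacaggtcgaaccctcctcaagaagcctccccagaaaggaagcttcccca
Cyp51: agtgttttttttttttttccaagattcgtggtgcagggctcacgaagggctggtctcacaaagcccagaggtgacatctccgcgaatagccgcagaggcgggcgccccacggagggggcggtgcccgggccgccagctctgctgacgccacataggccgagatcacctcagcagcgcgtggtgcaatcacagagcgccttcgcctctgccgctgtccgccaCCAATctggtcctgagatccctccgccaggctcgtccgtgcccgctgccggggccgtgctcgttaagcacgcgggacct
Mvd: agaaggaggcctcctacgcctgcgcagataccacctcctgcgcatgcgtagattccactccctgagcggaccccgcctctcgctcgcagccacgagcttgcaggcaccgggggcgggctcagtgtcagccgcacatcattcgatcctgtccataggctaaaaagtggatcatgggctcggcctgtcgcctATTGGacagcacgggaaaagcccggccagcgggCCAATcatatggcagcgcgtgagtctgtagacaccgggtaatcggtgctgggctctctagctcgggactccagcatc
Hsd17b7: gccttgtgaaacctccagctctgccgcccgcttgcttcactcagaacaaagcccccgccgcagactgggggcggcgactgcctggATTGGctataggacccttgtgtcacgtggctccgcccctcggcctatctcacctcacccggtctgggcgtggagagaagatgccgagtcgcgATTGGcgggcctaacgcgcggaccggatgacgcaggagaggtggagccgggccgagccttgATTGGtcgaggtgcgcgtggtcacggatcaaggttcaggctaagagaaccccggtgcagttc

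The window of Hmgcs1 held 1 match to the sterol regulatory element core, TCACCCCAC, which begins 137 bases before the start, and 4 NF-Y boxes. The other windows held no match to this core and between 1 and 3 NF-Y boxes each. Promoters were at hand for 29 of the 37 members and 14 of the 17 sterol synthesis members. At least 1 NF-Y box was present for 22 of the 29 and for 14 of the 14, against 41.1% of the 27025 genes in the promoter table and 37.4% of its 32851 promoters. Of the 11 members with a promoter that differed between the siRNAs over both treatments, 10 held a box, Abca1 being the exception, as did 12 of the 18 others. The sterol core was found for 1 of 29 members against 1.44% of genes (1.24% of promoters), and the E-box CACGTG for 7 of 29 (Hsd17b7, Sc5d, Dhcr7, Insig1, Scap, Abca1 and Lipe) against 8.09% of genes (7.15% of promoters). The forkhead core TGTTTAC was found for 2 of 29, Elovl6 and Lipe, against 4.05% of genes (3.65% of promoters), and for 0 of the 14 sterol synthesis members. Both strands were searched, and a match is a run of letters, not a site shown to be bound.

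Enzymes of cholesterol synthesis were higher in the arrays labelled FOXL2 siRNA than in those labelled control siRNA. Over both treatments, 11 of the 17 sterol synthesis members rose and none fell by limma's test at an adjusted p under 0.05, from all 6 mevalonate enzymes through all 3 enzymes from squalene to lanosterol, and then 2 of the 8 later ones, Cyp51 and Hsd17b7. Over all 37 members, 15 rose and 1 fell, against 6.4% of all genes kept that rose and 6.18% that fell. The median change was 0.54 for the 17 sterol synthesis members, 0.11 for the other 20 and 0.32 for all 37, beside -0.003 for all genes kept. All 4 arrays labelled FOXL2 siRNA lay above all 4 labelled control siRNA for 18 of the 37 members, 13 of them sterol synthesis members, and below for 2, where 10.1% and 10.7% of all genes kept did so.

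**Figure D1:**
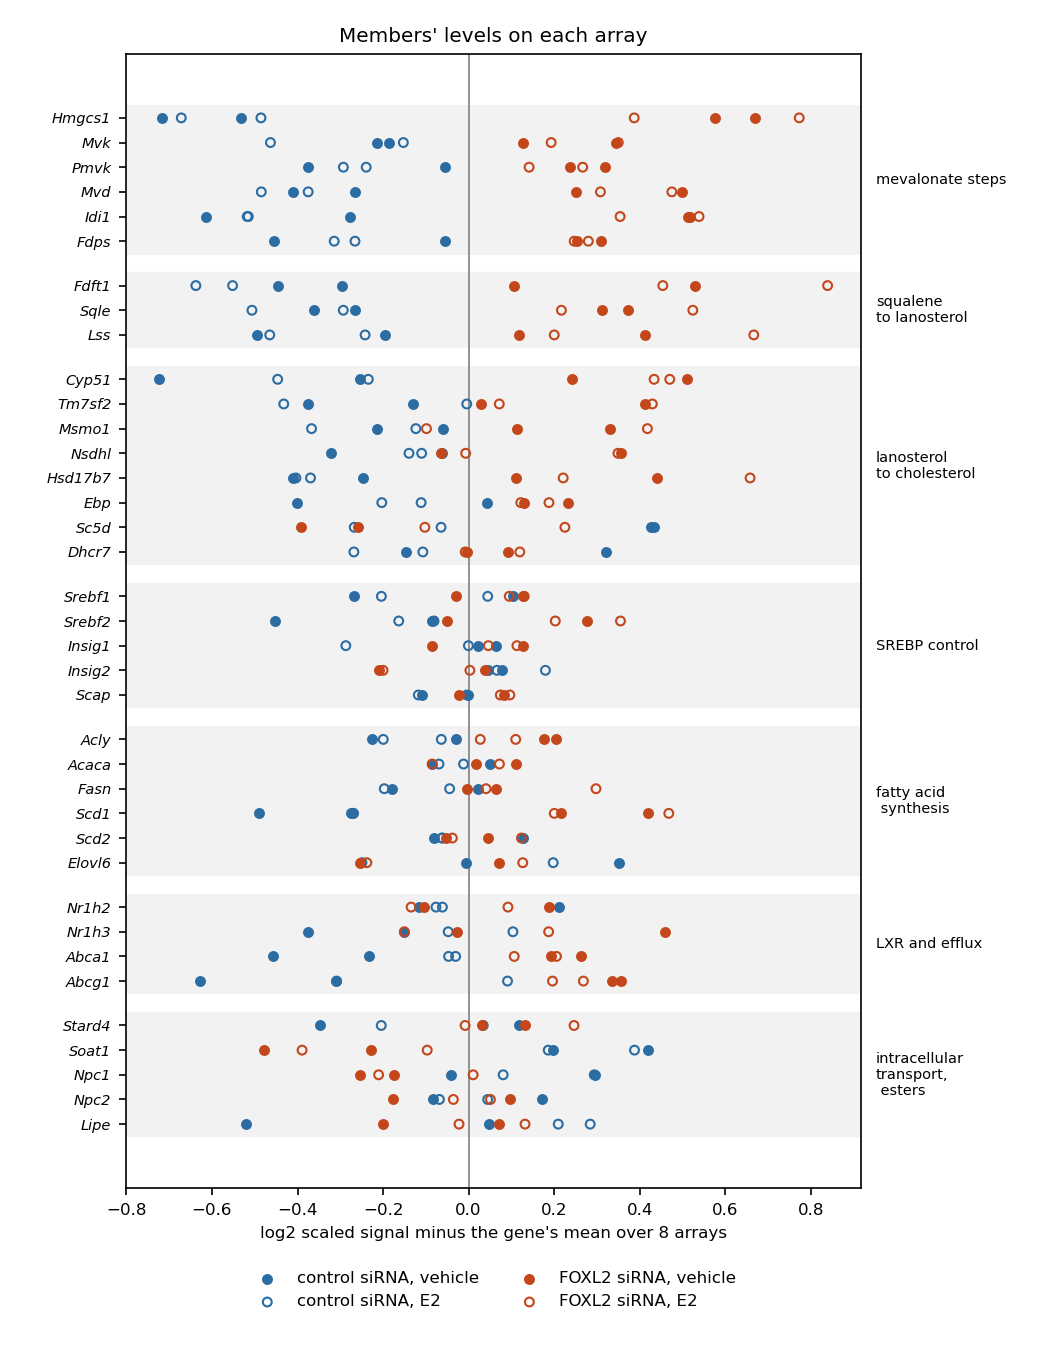
Each row is a member and each point an array, placed on the x axis at its log2 scaled signal minus the gene's mean over the 8 arrays; blue is control siRNA, red FOXL2 siRNA, filled vehicle and open E2. For 13 of the 17 sterol synthesis members the 4 red points lie to the right of the 4 blue points, while most members of the lower rows overlap.

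Averaged over the 17 sterol synthesis members, each first set to its own mean over the arrays, the level was -0.23 and -0.26 with control siRNA plus vehicle and -0.39 and -0.26 with control siRNA plus E2. With FOXL2 siRNA it was 0.18 and 0.33 with vehicle and 0.19 and 0.44 with E2. The same average over the 6 fatty acid members was -0.12 and -0.01, then -0.17 and -0.04 with control siRNA, and 0.03 and 0.14, then 0.01 and 0.17 with FOXL2 siRNA. The siRNA groups did not overlap in either average, but for the fatty acid members they nearly met, at -0.01 and 0.01. Of those 6 members, 2 had siRNA groups without overlap, both higher with FOXL2 siRNA. Of all genes kept, 10.1% lay higher and 10.7% lower without overlap.

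**Figure D2:**
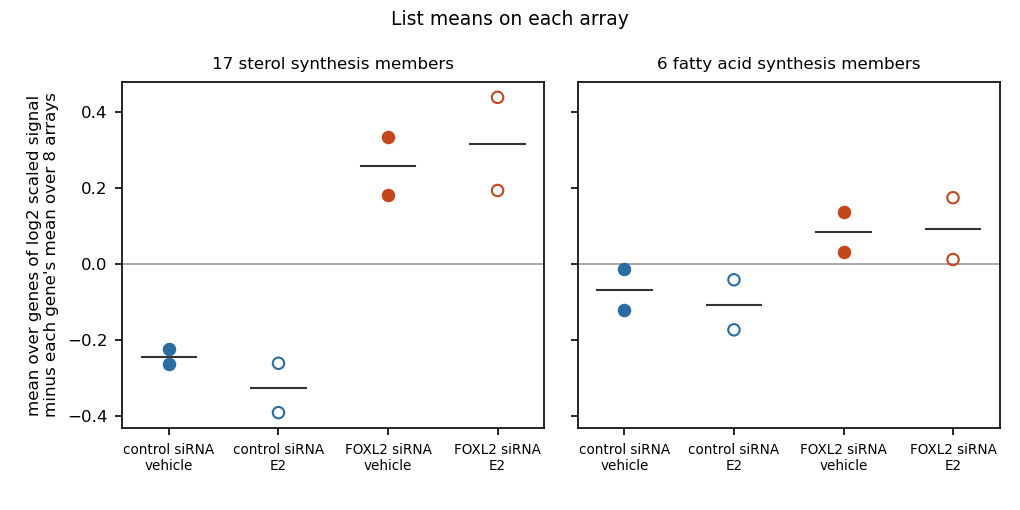
The y axis is the mean over genes of the log2 scaled signal minus each gene's mean over 8 arrays, each point is an array and each bar the mean of 2 arrays. The 17 sterol synthesis members lie between -0.39 and -0.23 with control siRNA and between 0.18 and 0.44 with FOXL2 siRNA, and the 6 fatty acid members between -0.17 and -0.01 and between 0.01 and 0.17.

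The mevalonate steps turn acetyl-CoA units into the isoprenoid phosphates from which sterols, dolichol and prenyl groups are made. All 6 members at these steps rose over both treatments, with a median change of 0.66. Hmgcs1, the synthase that joins acetyl-CoA to acetoacetyl-CoA, lay at 12.47 and 12.29 with control siRNA plus vehicle, 12.33 and 12.52 with control siRNA plus E2, 13.58 and 13.67 with FOXL2 siRNA plus vehicle, and 13.39 and 13.78 with FOXL2 siRNA plus E2. Its 4 arrays labelled FOXL2 siRNA were thus well apart from the others, and within either siRNA the E2 arrays overlapped the vehicle arrays. The change was 1.20 (SE 0.10, 2.30-fold, limma adjusted p = 0.000483), the largest of the 37 members, and it ranked 202 of the 15637 genes kept by its rise. Idi1, which interconverts the 2 isoprene building blocks, stood at 11.15 and 10.82, then 10.91 and 10.91 with control siRNA (vehicle, then E2), and at 11.94 and 11.95, then 11.78 and 11.97 with FOXL2 siRNA. That is a change of 0.96 (SE 0.09, 1.95-fold, limma adjusted p = 0.00064), the same size with vehicle (0.96) as with E2 (0.96).

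The other four enzymes of these steps had smaller changes. Mvd, the decarboxylase that makes isopentenyl diphosphate, measured 10.84 and 10.69, then 10.62 and 10.73 with control siRNA, and 11.35 and 11.60, then 11.41 and 11.58 with FOXL2 siRNA. Mvk, mevalonate kinase, measured 12.18 and 12.15, then 11.90 and 12.21 with control siRNA, and 12.49 and 12.71, then 12.56 and 12.71 with FOXL2 siRNA. For Pmvk, the kinase after it, the values were 12.12 and 11.80, then 11.88 and 11.94, and 12.41 and 12.49, then 12.32 and 12.44. None of these 3 genes had an array labelled FOXL2 siRNA at or under any control array. Fdps, which joins the building blocks into farnesyl diphosphate, lay at 14.42 and 14.03, then 14.17 and 14.21, and at 14.79 and 14.73, then 14.76 and 14.73, with the first control array closest to the other group. The changes over both treatments were 0.77 for Mvd (SE 0.08, limma adjusted p = 0.00125), 0.51 for Mvk (SE 0.09, limma adjusted p = 0.00978), 0.48 for Pmvk (SE 0.08, limma adjusted p = 0.00832) and 0.54 for Fdps (SE 0.09, limma adjusted p = 0.00689).

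From squalene to lanosterol the pathway is committed to sterols, and all 3 members of this stretch rose, with a median change of 0.71. Fdft1, squalene synthase, lay at 11.15 and 11.30 with control siRNA plus vehicle, 10.96 and 11.04 with control siRNA plus E2, 11.70 and 12.13 with FOXL2 siRNA plus vehicle, and 12.05 and 12.44 with FOXL2 siRNA plus E2. The change was 0.97 (SE 0.12, 1.95-fold, limma adjusted p = 0.00227). Its values were lowest with control siRNA plus E2 and reached their highest with FOXL2 siRNA plus E2, so that the change was 0.69 with vehicle (limma adjusted p = 0.0558) and 1.24 with E2 (limma adjusted p = 0.0087), but the difference between those changes, 0.55 (SE 0.24), did not pass the test (limma unadjusted p = 0.0511). Sqle, squalene epoxidase, stood at 12.85 and 12.75, then 12.61 and 12.82 with control siRNA, and at 13.43 and 13.49, then 13.33 and 13.64 with FOXL2 siRNA, a change of 0.71 (SE 0.09, limma adjusted p = 0.00209). Lss, which folds squalene epoxide into lanosterol, stood at 9.56 and 9.87, then 9.60 and 9.82, and at 10.18 and 10.47, then 10.26 and 10.73. Its change was 0.70 (SE 0.13, limma adjusted p = 0.0133), and the call was lost without the first array of control siRNA with E2 (limma adjusted p = 0.0559) and without the second of FOXL2 siRNA with vehicle.

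Beyond lanosterol the 8 members were more uneven, with a median change of 0.36 and a range from -0.26 to 0.83. Cyp51, the demethylase that acts on lanosterol, lay at 8.14 and 7.67, then 8.15 and 7.94 with control siRNA, and at 8.90 and 8.63, then 8.86 and 8.82 with FOXL2 siRNA, and its change was 0.83 (SE 0.13, 1.78-fold, limma adjusted p = 0.00511). Hsd17b7, a ketosteroid reductase of this stretch that can also make estradiol from estrone, lay at 7.96 and 8.13, then 7.97 and 8.00, and at 8.48 and 8.81, then 8.59 and 9.03. It rose by 0.71 (SE 0.12, limma adjusted p = 0.00918), and each of its 3 probes was higher in all 4 arrays labelled FOXL2 siRNA. These 2 members of this stretch passed the test over both treatments.

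Further members beyond lanosterol lay higher with FOXL2 siRNA but passed the test only with the replicate number as a block or in single other settings. Tm7sf2, a sterol reductase, measured 10.41 and 10.66, then 10.36 and 10.78 with control siRNA, and 10.82 and 11.20, then 10.86 and 11.22 with FOXL2 siRNA, with a change of 0.47 (limma adjusted p = 0.0695). Ebp, a sterol isomerase, measured 13.85 and 13.40, then 13.60 and 13.69, and 14.04 and 13.93, then 13.99 and 13.93, with a change of 0.34 (limma adjusted p = 0.0654). Neither gene had overlapping siRNA groups, though the groups overlapped at the dimmer Tm7sf2 probe. Msmo1, the methylsterol oxidase that acts after Cyp51, measured 14.60 and 14.76, then 14.45 and 14.70, and 14.93 and 15.15, then 14.72 and 15.24, a change of 0.38 (limma adjusted p = 0.0893), and Nsdhl, the dehydrogenase that follows it, 8.41 and 8.67, then 8.60 and 8.62, and 8.67 and 9.09, then 8.73 and 9.08, a change of 0.32 (limma adjusted p = 0.163). The groups of Msmo1 and Nsdhl overlapped. At the dimmer Nsdhl probe they did not, at a change of 0.49 (limma adjusted p over probes 0.0303). With the replicate number as a block, the limma adjusted p was 8.66e-05 for Tm7sf2, 0.00696 for Ebp, 0.00113 for Msmo1 and 0.0106 for Nsdhl. Dhcr7, the reductase at the end of the pathway, stayed between 10.13 and 10.72 on all arrays, with a change of 0.10 (limma adjusted p = 0.625).

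Sc5d, the desaturase that acts just before Dhcr7, was the exception among the sterol enzymes. It lay at 12.39 and 12.39 with control siRNA plus vehicle, 11.69 and 11.90 with control siRNA plus E2, 11.57 and 11.70 with FOXL2 siRNA plus vehicle, and 11.86 and 12.19 with FOXL2 siRNA plus E2. The control arrays without E2 were therefore above the other 6. With vehicle the change between the siRNAs was -0.76 (SE 0.13, limma adjusted p = 0.0144), a fall to 0.592 of the control level, while with E2 it was 0.23 (limma adjusted p = 0.44). E2 against vehicle gave -0.60 with control siRNA (limma unadjusted p = 0.00173, adjusted p = 0.412) and 0.39 with FOXL2 siRNA (limma unadjusted p = 0.0166). The difference between these E2 effects was 0.98 (SE 0.18, limma unadjusted p = 0.000674, adjusted p = 0.153), and it was called only when the replicate number was a block. With that block, the E2 effect with control siRNA was called too. The fall with vehicle was lost in 4 of the 8 fits that left out an array, namely those that lacked any array of the vehicle groups, at adjusted p-values up to 0.083.

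**Figure D3:**
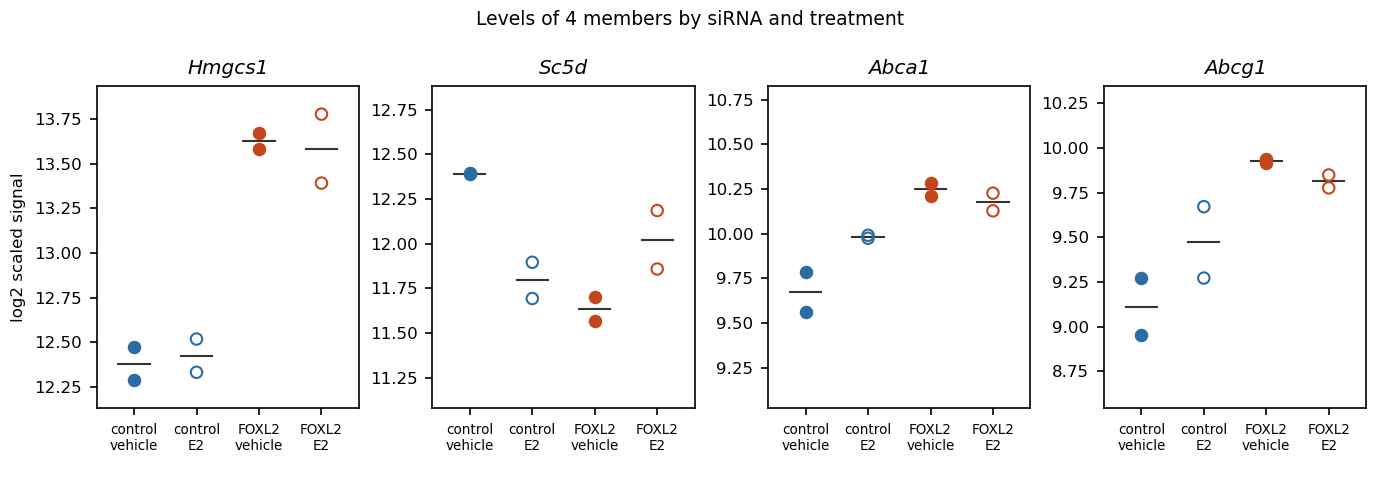
Each panel gives the log2 scaled signal of a member, each point an array and each bar the mean of 2 arrays, on y axes that differ in level but span the same range. Hmgcs1 separates by siRNA alone, Sc5d is highest with control siRNA plus vehicle, and Abca1 and Abcg1 have their lowest means there.

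None of the 5 members that control SREBP passed the test, at changes from -0.18 to 0.39 and a median of 0.12. Srebf2, the SREBP gene most tied to sterol synthesis, lay at 7.54 and 7.91, then 7.91 and 7.83 with control siRNA, and at 8.27 and 7.94, then 8.35 and 8.19 with FOXL2 siRNA. All 4 arrays labelled FOXL2 siRNA were above the others, the nearest by a small margin, and the change was 0.39 (SE 0.12, limma adjusted p = 0.0751). Insig2, a brake on Scap, lay at 10.24 and 10.21, then 10.34 and 10.23, and at 10.20 and 9.95, then 10.17 and 9.96. It was the reverse of Srebf2 in order, with every array labelled FOXL2 siRNA under the others, the nearest by a very small margin, at a change of -0.18 (limma adjusted p = 0.212). At the dimmer probe of each of these genes, Srebf2 and Insig2, the siRNA groups overlapped. Srebf1, the SREBP gene most tied to fatty acid synthesis, Insig1 and Scap had overlapping groups and changes of 0.16, 0.10 and 0.12 (limma adjusted p from 0.283 to 0.556).

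Of the 6 fatty acid members, 2 rose over both treatments, and the median change was 0.13. Scd1, the desaturase that makes oleate from stearate, lay at 9.73 and 9.94, then 9.95 and 9.95 with control siRNA, and at 10.43 and 10.64, then 10.42 and 10.69 with FOXL2 siRNA. It rose by 0.65 (SE 0.09, 1.57-fold, limma adjusted p = 0.00383). Its paralog Scd2 stayed between 15.80 and 16.00 on all arrays, at a change of 0.04 (limma adjusted p = 0.789). Acly, which supplies cytosolic acetyl-CoA to both pathways, lay at 13.04 and 12.84, then 12.87 and 13.00, and at 13.24 and 13.27, then 13.09 and 13.18. Its rise of 0.26 (SE 0.07, limma adjusted p = 0.0462) was lost in 7 of the 8 fits that left out an array, with an adjusted p of up to 0.146 without the second array of FOXL2 siRNA with E2, and held without the first array of control siRNA with vehicle. Neither Acly probe passed the test alone (limma adjusted p over probes 0.0668 and 0.0532). Acaca and Fasn, the carboxylase and synthase that build the chain, changed by 0.06 and 0.20 with overlapping groups (limma adjusted p = 0.651 and 0.234). The dimmest of the 4 Acaca probes went against the other 3, at -0.47 (limma adjusted p over probes 0.21). Elovl6, an elongase, lay at 10.44 and 10.80, then 10.20 and 10.64, and at 10.19 and 10.52, then 10.21 and 10.57, with overlapping groups and a change of -0.15 (limma adjusted p = 0.587).

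Both efflux pumps rose while their receptors did not pass the test. Abca1, which loads cholesterol onto lipid-poor lipoprotein, lay at 9.79 and 9.56 with control siRNA plus vehicle, 9.98 and 9.99 with control siRNA plus E2, 10.29 and 10.21 with FOXL2 siRNA plus vehicle, and 10.13 and 10.23 with FOXL2 siRNA plus E2. Abcg1, which loads it onto mature lipoprotein, lay at 8.95 and 9.27, then 9.27 and 9.67, and at 9.92 and 9.94, then 9.78 and 9.85. In both genes the control arrays with vehicle had the lowest mean and the arrays labelled FOXL2 siRNA lay above every control array. Over both treatments Abca1 rose by 0.38 (SE 0.07, limma adjusted p = 0.014) and Abcg1 by 0.58 (SE 0.11, limma adjusted p = 0.0136). The call of Abca1 was lost without the first array of control siRNA with E2 and without the second of FOXL2 siRNA with E2 (limma adjusted p = 0.0585), and that of Abcg1 without the second of FOXL2 siRNA with vehicle (limma adjusted p = 0.0505). With vehicle the changes were 0.57 and 0.82 (limma adjusted p = 0.0192 and 0.0228), and with E2 0.19 and 0.34 (limma adjusted p = 0.419 and 0.336). The difference between those changes was -0.38 for Abca1 (SE 0.15, limma unadjusted p = 0.0352, adjusted p = 0.95) and -0.47 for Abcg1 (SE 0.22, limma unadjusted p = 0.0664), so it was not shown that E2 altered them.

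The LXR receptors did not separate by siRNA. Nr1h3, the LXR of macrophages and liver, lay at 7.69 and 7.47, then 7.95 and 7.79 with control siRNA, and at 8.30 and 7.82, then 8.03 and 7.69 with FOXL2 siRNA, with overlapping groups and a change of 0.24 (limma adjusted p = 0.34). As in both pumps, its mean was lowest with control siRNA plus vehicle and highest with FOXL2 siRNA plus vehicle. Its probes changed by 0.50 and 0.46 with vehicle (limma adjusted p over probes 0.269 and 0.242) and by -0.01 and -0.01 with E2. Nr1h2, the widely expressed LXR, stayed between 12.85 and 13.20 at a change of 0.02 (limma adjusted p = 0.931).

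Among the 5 members that carry or store cholesterol, Soat1 alone passed the test. Soat1, which esterifies cholesterol for storage, lay at 10.64 and 10.42, then 10.61 and 10.40 with control siRNA, and at 9.99 and 9.74, then 10.12 and 9.83 with FOXL2 siRNA. Every array labelled FOXL2 siRNA was under every control array, and the gene fell by 0.60 on the log2 scale (SE 0.10, 0.662-fold, limma adjusted p = 0.00953). Npc1, which exports cholesterol from late endosomes, lay at 7.45 and 7.79, then 7.78 and 7.57, and at 7.24 and 7.32, then 7.28 and 7.50, a change of -0.31 (limma adjusted p = 0.129) with 1 array labelled FOXL2 siRNA, at 7.50, above the lowest control array. Npc2, its partner, Stard4, a sterol carrier, and Lipe, the lipase that frees cholesterol from its esters, changed by -0.03, 0.20 and -0.01 with overlapping groups (limma adjusted p from 0.374 to 0.979). Lipe was also the dimmest member, between 4.89 and 5.70 on all arrays.

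Within each treatment the calls were fewer and depended on single arrays. With vehicle, 10 members rose (Hmgcs1, Pmvk, Mvd, Idi1, Fdps, Sqle, Cyp51, Scd1, Abca1 and Abcg1) and 2 fell (Sc5d and Soat1), where 3.63% of all genes kept rose and 2.94% fell. With E2, 8 members rose (Hmgcs1, Mvk, Mvd, Idi1, Fdft1, Sqle, Hsd17b7 and Scd1) and 0 fell, where 2.25% of all genes kept rose and 2.14% fell. The median change of the 37 members was 0.36 with vehicle and 0.29 with E2, beside -0.01 and 0.00 for all genes kept, and 15 and 17 of the 17 sterol synthesis members had a change above 0. Leaving out 1 array took the 12 calls with vehicle to 3 without the second array of control siRNA with vehicle, to 4 without the first and to 2 without the second of FOXL2 siRNA with vehicle. It took the 8 calls with E2 to 0 without the first and 2 without the second array of control siRNA with E2, to 1 without the second of FOXL2 siRNA with E2, and to 5 without either array of FOXL2 siRNA with vehicle. Hmgcs1 and Idi1 with vehicle were called in all 8 such fits, Hmgcs1 with E2 in all but that without the first array of control siRNA with E2 (limma adjusted p = 0.0583), and Mvk and Scd1 with E2 in none. Each remaining call within a treatment was lost in 2 to 7 of these fits. For no member did the change with E2 differ from that with vehicle at an adjusted p under 0.05, apart from Sc5d in the fit with a replicate block.

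**Figure D4:**
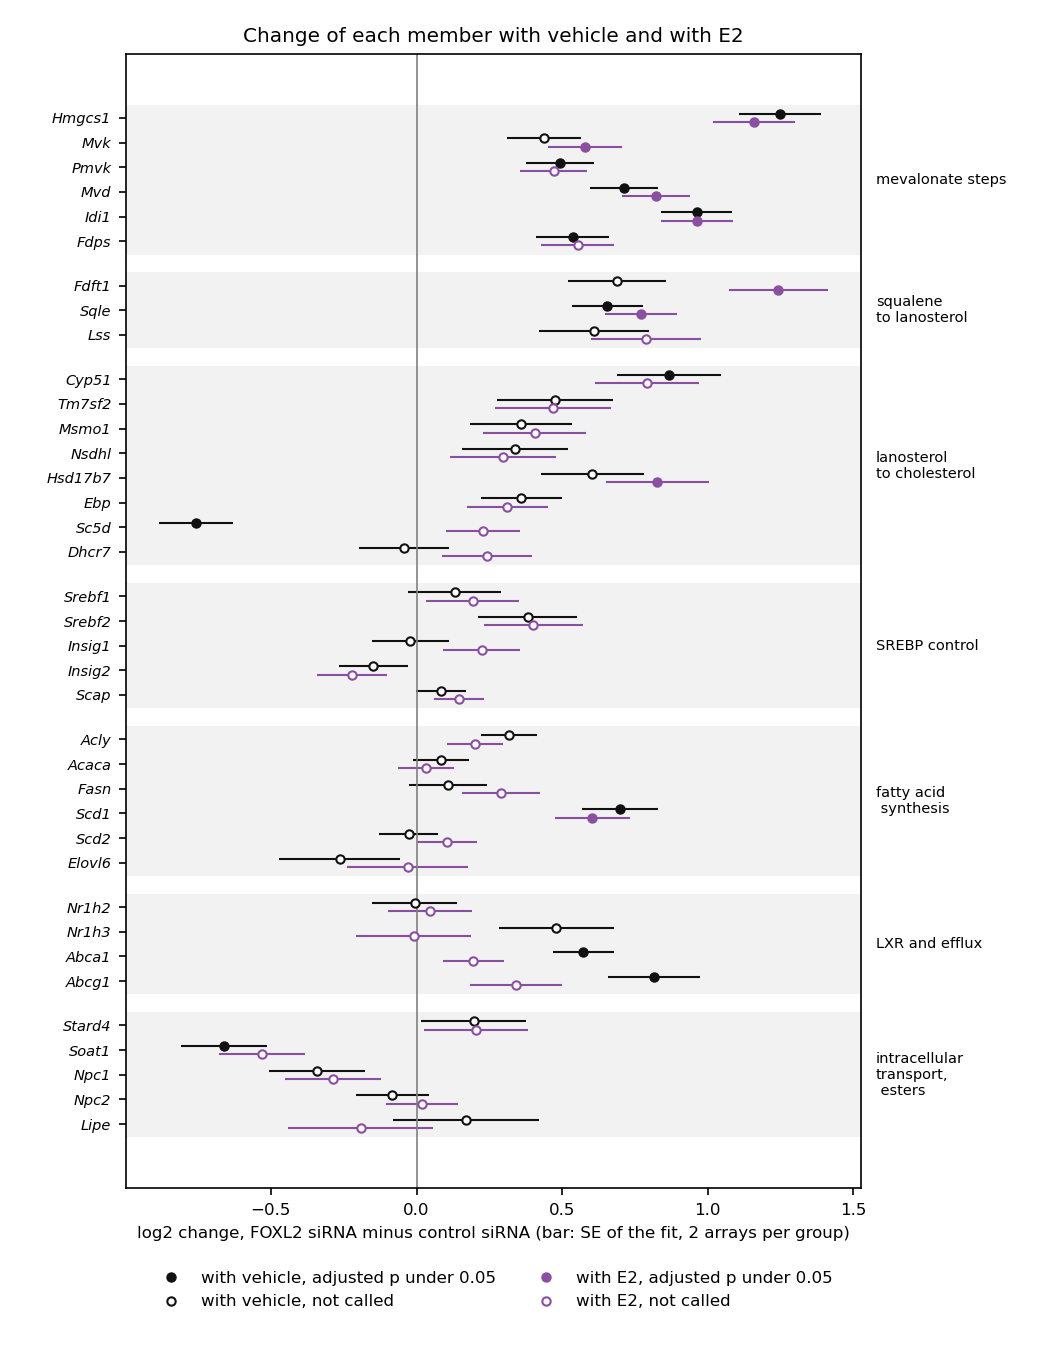
Each row is a member, and the x axis is its log2 change, FOXL2 siRNA minus control siRNA, with vehicle (black) and with E2 (purple); bars are the SE of the fit and filled points passed limma's adjusted p under 0.05. The enzymes from Hmgcs1 to Hsd17b7 lie to the right of 0 with both treatments, and Sc5d lies at -0.76 with vehicle and 0.23 with E2.

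E2 itself moved no member past the test in the fit without a replicate block. With that block, Sc5d was called for E2 with control siRNA and for the difference between the E2 effects. Limma called 0 of the 37 members with control siRNA (0.0192% of all genes kept), 0 with FOXL2 siRNA (0.0128%), 0 over both siRNAs (0%) and 0 for the difference between the E2 effects (0.243%). At an unadjusted p under 0.05 there were 2 with control siRNA, Sc5d and Abca1, where 4.58% of all genes kept passed. With FOXL2 siRNA there was 1, Sc5d, where 3.06% passed, over both siRNAs there were 0, where 2.3% passed, and for the difference 2, again Sc5d and Abca1, where 4.91% passed. The rule of the study's methods, a log2 difference of 1 or more that exceeds 2 times the sum of both SDs, took 0 members with either siRNA, beside 0.454% of all genes kept with control siRNA and 0.217% with FOXL2 siRNA. The changes of the members with E2 ranged from -0.60 to 0.48 with control siRNA and from -0.20 to 0.39 with FOXL2 siRNA, each with an SE of 0.09 to 0.25, and their medians were -0.02 and 0.03 beside -0.01 and -0.03 for all genes kept. Hmgcs1, the member that differed most between the siRNAs, changed by 0.05 and -0.04 with E2 (SE 0.14 for both).

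Of 40 further genes of these pathways, 6 rose and 4 fell between the siRNAs over both treatments, with a median change of 0.04, against 6.4% of all genes kept that rose, 6.18% that fell and a median of -0.003. Among 5 further sterol synthesis genes 1 rose, Acat2, the cytosolic thiolase that makes acetoacetyl-CoA ahead of Hmgcs1, by 0.62 (SE 0.09, limma adjusted p = 0.00519). Acat2 lay between 7.58 and 7.94 with control siRNA and between 8.30 and 8.40 with FOXL2 siRNA. Among 15 further fatty acid genes 4 rose and 2 fell. Me1, malic enzyme, a source of NADPH, stood at 0.65 (SE 0.15, limma adjusted p = 0.0275) and Acacb, the carboxylase tied to fatty acid oxidation, at -0.50 (SE 0.08, limma adjusted p = 0.00655), and the other four, named after their values were seen, were Fads2, Acsl4 and Tecr, which rose, and Acsl1, which fell. Among 11 further genes of uptake, transport and esters 0 rose and 2 fell. These were Vldlr, a lipoprotein receptor, at -1.10 (SE 0.08, limma adjusted p = 0.000346), and Scp2, a sterol carrier of peroxisomes, at -0.47 (SE 0.07, limma adjusted p = 0.00598). Vldlr lay at 11.51 and 11.62, then 11.25 and 11.31 with control siRNA, and at 10.29 and 10.01, then 10.57 and 10.41 with FOXL2 siRNA. Of 5 genes listed beside LXR 1 rose, the bile acid receptor Nr1h4 at 0.42 (SE 0.07, limma adjusted p = 0.00832), and of 4 that process SREBP 0 passed the test.

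Of 5 luteal genes, Cyp11a1 rose, Hsd3b1 fell and Star, Akr1c18 and Prlr did not pass the test between the siRNAs, beside the 6.4% of all genes that rose and 6.18% that fell. The summed level of the 5, in which the brighter genes weigh most, was 17.07 to 17.16 with control siRNA plus vehicle, 16.92 to 16.94 with control siRNA plus E2, 16.58 to 16.82 with FOXL2 siRNA plus vehicle, and 16.59 to 16.83 with FOXL2 siRNA plus E2 on the log2 scale. Cyp11a1, which cuts the cholesterol side chain to start steroid synthesis, changed by 0.89 (SE 0.06, limma adjusted p = 0.000195), and Hsd3b1, the next enzyme, fell by 0.69 (SE 0.11, limma adjusted p = 0.00746). The summed level of 9 granulosa genes was 16.98 to 17.06, then 17.00 to 17.03 with control siRNA, and 17.26 to 17.35, then 17.18 to 17.25 with FOXL2 siRNA. In that list Inhbb, an inhibin subunit, rose by 0.80, while Fst, which binds activin, and Esr2, the estrogen receptor of these cells, fell by 2.02 and 0.46 (limma adjusted p = 0.0185, 0.000226 and 0.0167). Amhr2, the brightest gene of the list, changed by 0.41 with overlapping siRNA groups (limma adjusted p = 0.0625). Cyp19a1, well above background on 6 of 8 arrays, was lower in every array labelled FOXL2 siRNA, at -0.75 (limma adjusted p = 0.082). The 6 macrophage genes summed to 9.15 to 9.22, then 9.09 to 9.11, and to 9.40 to 9.47, then 9.18 to 9.44, and the 4 endothelial genes to 10.29 to 10.82, then 10.10 to 10.54, and to 10.88 to 10.93, then 10.63 to 10.72. Over both treatments, the siRNA groups did not overlap in the luteal and granulosa sums and overlapped in the macrophage and endothelial sums. They also overlapped in the theca sum, at 10.69 to 11.69 with control siRNA and 11.22 to 12.11 with FOXL2 siRNA. In the oocyte sum they overlapped too, at 6.79 to 7.31 and 7.07 to 7.51. Within each treatment, however, the macrophage and endothelial sums were higher in both arrays labelled FOXL2 siRNA than in both control arrays. The theca sum separated in this way with E2 only, at 10.69 to 11.24 with control siRNA and 11.87 to 12.11 with FOXL2 siRNA. Of the 15637 genes kept, 3518 with vehicle and 3646 with E2 lay higher in the same way. Each sum follows its brightest genes, Hsd3b1 in the luteal list and Amhr2 and Inha in the granulosa list. Genes within the luteal and granulosa lists moved both ways. Whether cell content differed between the siRNAs was not tested. The part of any such difference in the members' changes was not tested either. The 4 adipocyte genes summed to 3.79 to 4.47 over all arrays, with overlapping siRNA groups and 3 of the 4 not well above background on any array.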

How the data were processed

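RNA of 8 samples was hybridised to 8 arrays on 1 slide, scanned once. Per the file headers, the deposited intensity is the spot signal after background subtraction and spatial detrending by Agilent's Feature Extraction, with other columns holding flags of 0 or 1. The authors also deposited a log2 table scaled to each array's 75th percentile, used here as an alternative and for gene IDs, and its values equalled those computed here, apart from a constant per array, within 0.01 at 99.4% of entries. Array intensities carry no read depth, and 2 arrays per group limit precision.

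Here, control spots were left out, intensities were scaled to the 75th percentile (275 to 367 units) and put back on the scale of the mean array, probes of an Entrez gene were averaged, genes whose median scaled signal reached 10 were kept, and log2 was taken. Per array, 51.4 to 55.7% of probes were well above background. The members have 53 probes, 24 members having 1 each. Gene values were fitted with limma 3.58.1 in R 4.3.3 as 4 group means with an intensity trend and 4 residual degrees of freedom, two-sided, with Benjamini-Hochberg adjustment over 15637 genes and a threshold of 0.05 (7 comparisons), after a check on simulated data. Replicates are separate pools of mice and cultures per the labels.

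The members, the lists of other genes and markers and the promoter letters were chosen with earlier results of these data known, and none of them supports another result. Values per array are given for members called in any comparison, for those called only with a replicate block and for the member of each step with the largest change; others are given by range. The 6 other pathway genes with the largest called change are given with their values. The rest of those called are only named, a choice made after their values were seen. Alternatives covered background, normalization, filter, probe summary, spread model, replicate block and each array left out. Promoters came from a RefSeq table on GRCm38.p6, while the arrays were designed on mm9, so positions are given only for the promoter windows, on that build of the table. Some genes of these pathways are not reported here. Tables were made in Python 3.11.15 with pandas 2.3.3 and plots with matplotlib 3.10.9.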

Additional observations from a re-analysis of the deposited data

How the results depend on the processing

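Of the calls of members made with the settings above, counted over 9 or 10 other settings each, 306 of 344 held and 38 did not, and over the fits that left out 1 array 196 of 288 held and 92 did not; no called member changed sign. Members called over both treatments (16) ranged from 15 to 24 over the other settings and from 13 to 17 without 1 array. With vehicle (12 called) the count was 5 with no intensity trend, 6 with only the groups compared and 2 to 11 without 1 array. With E2 (8 called) it was 4 with no intensity trend, 5 with no filter on low values and 0 to 8 without 1 array. The E2 comparisons stayed at 0 without any 1 array.

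With the replicate block, 24 members were called over both treatments (20 higher, 4 lower; the 8 added were Tm7sf2, Msmo1, Nsdhl, Ebp and Srebf2, higher, and Sc5d, Insig2 and Npc1, lower, at adjusted p-values up to 0.0467), 22 with vehicle, 15 with E2, 1 (Sc5d) for E2 with control siRNA and 1 (Sc5d) for the difference between the E2 effects. Deviations of same-numbered arrays from their group means correlated at 0.327 to 0.445 across genes, and the labels, which give 5 pooled mice per replicate, do not say whether the 4 arrays of one number came from 1 pool. No slide or scan block could be fitted, as all arrays share both. Lone arrays were assumed to vary like the other groups. Signal over background limits Lipe most.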
